A study of Mus musculus with 16 samples.

Results

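Mup2, Mup3, Mup10 and Mup17 are major urinary protein genes, and these 4 were followed among the 21 Mup genes and the 48158 genes that the deposited table covers. They were selected on measured values, because earlier results of these same data showed them to fall steeply on the DDC diet. Their diet differences are therefore given as a description without a test. PolyA-selected RNA was sequenced from hepatocytes that had been isolated with cycloheximide, which halts ribosomes on their messages. The mice were of strain FVB and were on a normal chow (CHOW) diet or on a diet with DDC for 4 weeks. DDC is a porphyrinogenic agent that injures liver cells and bile ducts. RNA was taken from cytoplasm and from 3 fractions of a sucrose gradient: monosomes (1 ribosome), light polysomes (2 to 4 ribosomes) and heavy polysomes (more than 5). Each of the 8 groups of diet and RNA pool held 2 libraries. The chow fractions came from preparations named CH1_CH2 (replicate 1) and CH3_CH4 (replicate 2), which read as pools, and the chow cytoplasm from CH1 and CH3. The DDC fractions came from preparations B (replicate 1) and C (replicate 2), and the DDC cytoplasm from C2 and D2. The labels name neither sex nor age, and they do not say that each library is a separate animal.

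Major urinary proteins are small secreted lipocalins that carry pheromones in a barrel-shaped pocket. The mouse liver makes them in large amounts, and they leave the body in urine. Their genes are known for higher expression in males, driven by pulsed growth hormone through its receptor GHR and the transcription factor STAT5B, with further control by glucocorticoid and thyroid hormone. Mup20 encodes darcin, a male scent protein.

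The 4 genes lie within 1 family cluster on mouse chromosome 4 (GRCm38, GENCODE M21), whose 21 tabulated genes span chr4:59956804-62150863. All 4 are on the minus strand: Mup2 at chr4:60135932-60154289, Mup10 at chr4:60578260-60582199, Mup17 at chr4:61591929-61595871 and Mup3 at chr4:62083476-62087342. Their coding sequences were compared by script, using for each gene its most abundant protein-coding transcript. Mup2, Mup10 and Mup17 each have 540 coding bases and were 98.89 to 99.26% identical to each other, while Mup3 has 552 and was 82.61 to 82.97% identical to them. The start of each coding sequence is shown because the 3 close copies can hardly be told apart there and Mup3 can. Each stretch is read 5′ to 3′ on the minus strand of GRCm38, at chr4:60582029-60582088, chr4:60139727-60139786, chr4:61595701-61595760 and chr4:62087160-62087231, and capitals mark bases that differ from Mup10 or are not in it.
Mup10: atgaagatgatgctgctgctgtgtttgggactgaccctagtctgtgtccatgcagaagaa
Mup2: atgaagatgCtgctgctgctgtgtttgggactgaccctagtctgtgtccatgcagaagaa
Mup17: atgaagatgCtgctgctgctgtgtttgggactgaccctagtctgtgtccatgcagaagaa
Mup3: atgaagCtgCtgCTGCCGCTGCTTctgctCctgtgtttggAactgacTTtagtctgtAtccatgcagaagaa
In the first 60 coding bases, Mup2 and Mup17 each carry 1 base that Mup10 does not have, and over the whole coding sequence they carry 4 and 6 substitutions. Mup3 carries 84 substitutions against Mup10 and 12 inserted bases.

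Sharing of sequence decides how far reads can be given to 1 copy. Of all distinct 100-base windows in the protein-coding transcripts of a gene, 97.7% of those of Mup2 were also found in another gene, 85.39% of those of Mup10, 59.42% of those of Mup17 and 2.23% of those of Mup3. With 50-base windows the shares were 100%, 86.22%, 78.13% and 13.27%. No shared window lay in a gene outside the Mup family. The closest relatives in coding sequence were Mup15 for Mup2 (99.63%), Mup9 for Mup10 (99.63%), Mup13 for Mup17 (99.26%) and Mup21 for Mup3 (94.75%). The value of Mup3 thus rests mostly on sequence of its own, whereas those of Mup2, Mup10 and Mup17 depend on how the authors' software divided shared reads, and the sum of the 4 genes is given for each comparison.

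The promoters are shown to compare the sequence of the 4 genes before their start sites. The genes were selected for the same fall with DDC, and shared control was not tested. The stretches below are the part of the 250 bases before the RefSeq start site (GRCm38.p6) that lies outside annotated exons, read 5′ to 3′ on the minus strand, at chr4:60582200-60582405, chr4:60139898-60140106, chr4:61595872-61596082 and chr4:62087343-62087567. Capitals mark the match to the FOXA motif TGTTTNC, read from the other strand.
Mup10: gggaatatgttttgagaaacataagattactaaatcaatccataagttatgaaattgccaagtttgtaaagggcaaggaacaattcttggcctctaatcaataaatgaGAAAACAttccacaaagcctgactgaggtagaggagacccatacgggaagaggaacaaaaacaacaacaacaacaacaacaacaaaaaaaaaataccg
Mup2: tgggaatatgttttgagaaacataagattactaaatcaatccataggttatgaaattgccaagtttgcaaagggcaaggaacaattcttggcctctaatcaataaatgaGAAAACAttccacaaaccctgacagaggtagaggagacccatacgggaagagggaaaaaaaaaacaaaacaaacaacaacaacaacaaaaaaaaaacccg
Mup17: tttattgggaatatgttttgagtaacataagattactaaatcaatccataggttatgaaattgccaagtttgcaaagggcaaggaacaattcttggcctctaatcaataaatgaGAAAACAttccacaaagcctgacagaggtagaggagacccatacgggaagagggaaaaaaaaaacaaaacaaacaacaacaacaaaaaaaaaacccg
Mup3: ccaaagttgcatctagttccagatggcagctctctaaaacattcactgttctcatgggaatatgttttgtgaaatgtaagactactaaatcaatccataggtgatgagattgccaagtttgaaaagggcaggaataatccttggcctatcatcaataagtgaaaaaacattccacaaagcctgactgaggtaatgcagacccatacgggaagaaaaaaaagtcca
Over the 250 bases, with gaps counted as differences, Mup2, Mup10 and Mup17 were 90.23 to 95.29% identical to each other. On that count Mup3 was 56.39 to 58.86% identical to them. Mup2 and Mup3, for example, had 174 identical bases in an alignment of 304 columns. The windows reach different distances into annotated exons, and such offsets add gaps. The low values therefore do not measure how far the Mup3 promoter has diverged. The FOXA letters were present once in each of Mup2, Mup10 and Mup17 and were absent from Mup3. They were present in 13 of the 14 tabulated Mup promoters, against 17.84% of all 32851 promoters. The Mup promoters are related copies and most hold the same match, GAAAACA. They are therefore not independent sites, and no enrichment can be read from this share. The letters TTCNNNGAA (STAT5) matched none of the 4, nor did TTGCNNAA (C/EBP), the HNF1 letters GTTAAT and ATTAAC, or TATAAA. Among all promoters these occurred in 7.02, 9.56, 6.43 and 12.37%. Both strands were searched, and no match says only that these letters are not in this window.

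The values are FPKM, fragments per kilobase of transcript scaled to the library, which is a level per length and can be compared between genes. One set of libraries stood apart before any diet comparison. The summed level of 4 Y-linked genes (Ddx3y, Eif2s3y, Kdm5d and Uty) was 0 in all 4 chow libraries of replicate 1 and 5.53 to 44.9 FPKM in the other 12 libraries. Xist was at 0.039 to 2.45 FPKM in those 4 libraries and at 0 in the other 12. Since Mup genes are sex-biased, the main results are given with and without the 4 chow libraries of replicate 1. Summed FPKM per library ran from 375145 to 1386166, and 8313 to 9874 genes reached 1 FPKM. Hepatocyte markers were present, with 15 of 18 at 1 FPKM or more in both chow cytoplasmic libraries, although Alb was listed at 0 in all 16. The summed hepatocyte markers were 49423 to 51900 FPKM in chow cytoplasm and 27696 to 40999 in DDC cytoplasm. Ahsg (6444 and 5231 FPKM in chow cytoplasm) and Hpx (1354 and 1323 FPKM), both secreted hepatocyte proteins, were listed at 0 in all 8 DDC libraries. Over the 13 markers above 0 in all 4 cytoplasmic libraries the sum was 41624 and 45346 FPKM with chow and 40642 and 27380 with DDC, so that 1 DDC library was close to chow. Over 11 such markers on heavy polysomes it was 118083 and 93962 against 60380 and 41850. Markers of other liver cells were higher with DDC in cytoplasm: cholangiocyte markers summed to 338 to 453 FPKM against 42.1 to 47.3, Kupffer cell and macrophage markers to 632 to 997 against 97.4 to 128, and stellate cell and fibroblast markers to 84.4 to 105 against 18.0 to 29.7. On heavy polysomes the same 3 sums were 532 to 604, 5032 to 5909 and 84.99 to 102 FPKM with DDC, against 98.4 to 128, 297 to 495 and 2.89 to 10.9 in chow. The part of these cells in the results was not tested. In such bulk RNA, fewer hepatocytes and less Mup RNA per hepatocyte cannot be told apart.

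The summed RNA of the 4 genes was far lower in every DDC library than in every chow library. Together the 4 genes made up 0.305 to 3.82% of all FPKM in chow libraries and 0.00048 to 0.0172% in DDC libraries. In cytoplasm their sum was 5733 and 19109 FPKM in the chow libraries and 76.96 and 59.6 FPKM in the DDC libraries. On monosomes it was 2344 and 12891 FPKM against 2.95 and 39.95, on light polysomes 7175 and 23809.7 against 4.77 and 78.3, and on heavy polysomes 7348 and 38516 against 6.04 and 82.4. In all 4 pools each chow library was above each DDC library, which is a description only, as the genes were selected for this fall. The chow mean was 182-fold the DDC mean in cytoplasm, 355-fold on monosomes, 373-fold on light polysomes and 519-fold on heavy polysomes. With chow replicate 2 alone these were 280, 601, 573 and 872-fold, and with chow replicate 1 alone they were 84.0, 109, 173 and 166-fold. In DDC the sum was almost wholly Mup3, since Mup2, Mup10 and Mup17 were listed at or near 0. A listed 0 can be a failed estimate, so the folds of the sum may be too large. For Mup3 alone the chow mean was 118, 307, 280 and 383-fold the DDC mean in the same pools.

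**Figure D1:**
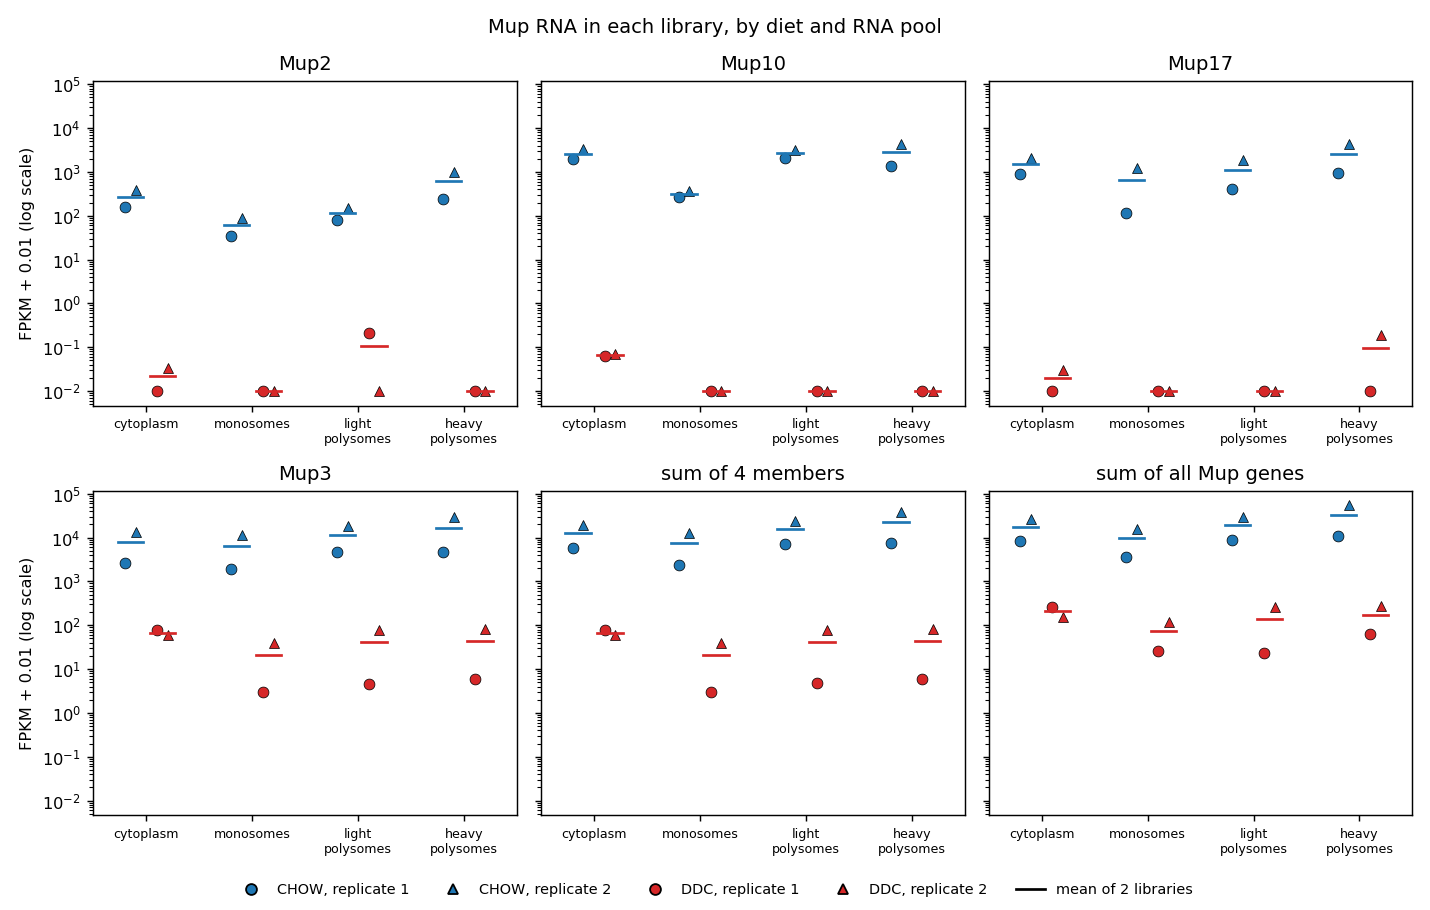
FPKM + 0.01 on a log axis for each of the 4 genes, their sum and the sum of all 21 tabulated Mup genes, by RNA pool; points are single libraries (circles replicate 1, triangles replicate 2, blue CHOW, red DDC) and lines are means of 2 libraries. All DDC points of Mup2, Mup10 and Mup17 lie below 0.2 FPKM, while Mup3 holds 2.95 to 82.2 FPKM in DDC.

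Mup3 was the most abundant of the 4 in all 16 libraries and the only one with a sizeable level left in DDC. In cytoplasm it was at 2697 and 13360.0 FPKM with chow and at 76.9 and 59.5 FPKM with DDC. On monosomes it was at 1929 and 11233 FPKM against 2.95 and 39.95, on light polysomes at 4636 and 18576 against 4.57 and 78.3, and on heavy polysomes at 4803 and 29005 against 6.04 and 82.2. The DDC mean was 0.85% of the chow mean in cytoplasm, 0.326% on monosomes, 0.357% on light polysomes and 0.261% on heavy polysomes. On the log2(FPKM + 1) scale the diet difference was -6.45 in cytoplasm, -8.52 on monosomes, -8.79 on light polysomes and -8.93 on heavy polysomes. Against chow replicate 2 alone it was -7.60, -9.79, -9.79 and -10.23.

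Mup10 was the second of the 4 in chow cytoplasm. It was at 1972 and 3292 FPKM there and at 0.0523 and 0.0587 FPKM in DDC cytoplasm. By the smallest step between values in these libraries, the DDC values correspond to about 2.27 and 3.6 fragments on its protein-coding transcript. On the gradient it was at 262 and 364 FPKM on chow monosomes, 2055 and 3234 on light polysomes, and 1339 and 4288 on heavy polysomes. It was listed at 0 in all 6 DDC gradient libraries. A value of 0 can be a failed estimate in this table, since Alb, the main hepatocyte message, is at 0 everywhere and Ahsg and Hpx are at 0 in all DDC libraries, so no fold is given against it.

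Mup17 was at 909.85 and 2075 FPKM in chow cytoplasm and at 0 and 0.0195 in DDC cytoplasm. Chow monosomes held 118 and 1207 FPKM, light polysomes 404 and 1852, and heavy polysomes 967 and 4243. In the DDC gradient it was listed at 0 apart from 0.176 FPKM, about 2.19 fragments, in heavy polysome replicate 2.

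Mup2 was the lowest of the 4 in every chow library. It was at 154 and 381 FPKM in chow cytoplasm, 34.4 and 87.4 on monosomes, 80.3 and 148 on light polysomes, and 239 and 979.6 on heavy polysomes. In DDC it was listed at 0 in 6 of 8 libraries. The other two were cytoplasm replicate 2 at 0.0232 FPKM and light polysome replicate 1 at 0.197 FPKM, and both values came from its transcript without a coding sequence. No chow library of any of the 4 genes overlapped with a DDC library. The genes were selected for a steep fall with DDC, so this separation is a description and not a result of its own.

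The spread between libraries of 1 diet was wide and not the same for each gene. In chow cytoplasm replicate 2 was above replicate 1 by 4.95-fold for Mup3, 2.47-fold for Mup2, 2.28-fold for Mup17 and 1.67-fold for Mup10. Of all 11760 genes tested in cytoplasm, 6.12% were at least 2-fold higher in chow replicate 2 than in replicate 1. Over the gradient fractions the same ratio was 4.01 to 6.04-fold for Mup3, 1.84 to 4.10-fold for Mup2, 4.39 to 10.2-fold for Mup17 and 1.39 to 3.20-fold for Mup10. The mean of the sum was 12421 ± 9458 FPKM in chow cytoplasm (SD, n = 2) and 68.3 ± 12.3 FPKM in DDC cytoplasm (SD, n = 2). In chow the mean sum was highest on heavy polysomes at 22932 ± 22039 FPKM, followed by light polysomes at 15492 ± 11762, cytoplasm, and monosomes at 7618 ± 7458 (SD, n = 2 each). No neighbours in this order differed beyond the SD of 2 libraries. Both chow preparations gave the same order, with ratios of heavy to light polysomes of 1.02 and 1.62, of light polysomes to cytoplasm of 1.25 and 1.25, and of cytoplasm to monosomes of 2.45 and 1.48. As a share of all FPKM in a library the order was another, with cytoplasm highest in both preparations (1.283 and 3.821%). Light polysomes held 0.811 and 2.826%, heavy polysomes 0.530 and 2.822%, and monosomes 0.305 and 1.581%.

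The DDC preparations also differed from each other. Mup3 was lower in gradient preparation B (2.95, 4.57 and 6.04 FPKM on monosomes, light and heavy polysomes) than in preparation C (39.95, 78.3 and 82.2 FPKM). The DDC cytoplasm, from C2 and D2, held 76.9 and 59.5 FPKM. Mup20 moved likewise, with 22.7, 17.6 and 54.6 FPKM in the fractions of preparation B and 79.8, 181 and 188 FPKM in those of preparation C. The female-biased gene Cyp2b13 went the other way, at 31.1, 24.0 and 45.2 FPKM in B and 7.58, 3.59 and 5.48 FPKM in C. Y-linked RNA was present in both, at 6.47 to 18.5 FPKM in B and 5.53 to 10.98 FPKM in C. With only 1 preparation of each, these are values without a test.

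As listed, the make-up of the Mup pool differed between the diets. The 4 genes held 66.5 to 80.1% of the FPKM of all 21 tabulated Mup genes in chow libraries and 9.52 to 38.6% in DDC libraries. The DDC shares rest almost wholly on Mup3, Mup20 and Mup21, since the other copies were listed at or near 0. As a listed 0 can be a failed estimate, these shares are uncertain. Of the other 17 genes, 5 reached 100 FPKM in a group mean: Mup7, Mup9, Mup16, Mup20 and Mup21. The remaining 12 were at 0 to 105 FPKM in chow libraries and at most 0.0819 FPKM in DDC libraries, and 11 of them were at 0 in all 8 DDC libraries. Mup9, Mup7 and Mup16 were likewise at 0 in all 8 DDC libraries.

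Mup20 kept more of its chow level in DDC than Mup3 did. In cytoplasm it was at 5.76 and 391 FPKM with chow and at 180.0 and 90.8 FPKM with DDC. On heavy polysomes it was at 10.7 and 1008 FPKM with chow and at 54.6 and 188 FPKM with DDC. In both pools the DDC libraries fell between the 2 chow libraries, and by limma the diet difference in cytoplasm was 1.33 ± 2.50 (log2, SE, Benjamini-Hochberg adjusted p = 0.758). Set against chow replicate 2 alone, the DDC mean was 34.7% in cytoplasm and 12.03% on heavy polysomes, compared with 0.511% and 0.152% for Mup3.

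Mup21, the closest relative of Mup3, was at 17.9 and 2040.4 FPKM in chow cytoplasm and at 3.54 and 4.204 FPKM in DDC cytoplasm. Its chow libraries differed by 114-fold, and its diet difference was -5.34 ± 2.67 (log2, SE, limma adjusted p = 0.178). That SE includes the gap between the chow libraries. In cytoplasm the DDC mean of Mup21 was 0.190% of chow replicate 2 and 21.7% of chow replicate 1. On heavy polysomes it was 0.118% and 22.2%. The copies differed in how far apart their chow libraries lay. Mup9, at 2414 and 3200.5 FPKM in chow cytoplasm, differed by 1.33-fold. Mup16 differed by 11.4-fold, Mup7, at 54.2 and 1767 FPKM, by 32.6-fold, and Mup20 by 67.8-fold. All 21 genes were higher in chow cytoplasm replicate 2 than in replicate 1.

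**Figure D2:**
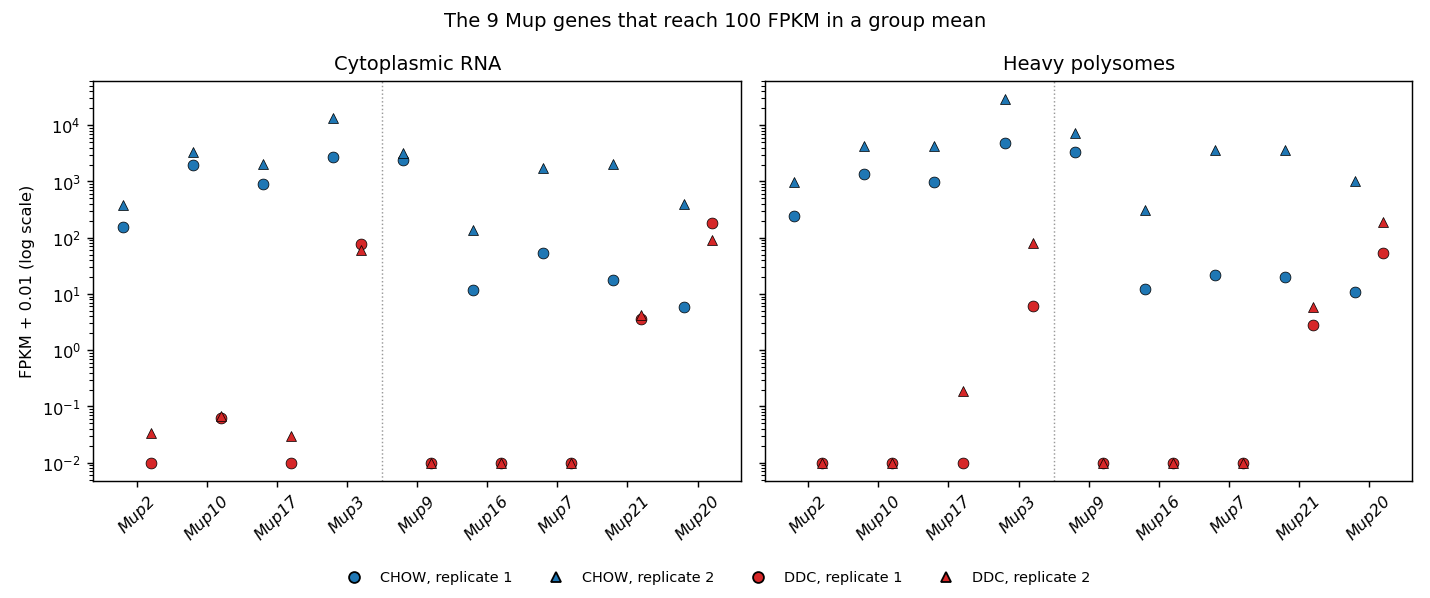
FPKM + 0.01 on a log axis for the 9 Mup genes that reach 100 FPKM in a group mean, in cytoplasmic RNA (left) and on heavy polysomes (right); circles are replicate 1 and triangles replicate 2, blue CHOW and red DDC, and the dotted line parts the 4 genes described from the other 5. Mup20 is the only one whose DDC points lie between its chow points.

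No test between the diets is given for the other Mup copies apart from Mup20 and Mup21. All but 1 of the rest were listed at 0 in all 8 DDC libraries, so that they could differ in 1 direction only. Most of them also share most of their sequence with other copies. Mup4, Mup5 and Mup6 do not, with 12.37, 17.12 and 4.0% of their 50-base windows found in another gene.

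Placement on ribosomes within chow was not the contrast that selected the genes, although the chow libraries entered it, and it was tested. As listed, Mup10 and Mup2 were higher on heavy polysomes than on monosomes. Most of their sequence is shared with other copies, so these values depend on how the authors' software divided reads. Other such copies went either way, with ratios of heavy polysomes to monosomes of 0.565 and 0.661 for Mup16 and 2.97 and 3.85 for Mup9. Mup10 rose from 262 to 1339 FPKM in the first preparation and from 364 to 4288 FPKM in the second, a ratio of 5.10 and 11.8. By limma its difference was 2.95 (log2, 95% interval 1.79 to 4.11, Benjamini-Hochberg adjusted p = 0.00147). Mup2 had ratios of 6.96 and 11.2 and a difference of 3.12 (interval 1.62 to 4.62, adjusted p = 0.00378). The sum of the 4 genes had ratios of only 3.13 and 2.99, and the sum of all 21 Mup genes 3.04 and 3.39. With libraries scaled to equal totals the differences were 2.15 for Mup10 (limma adjusted p = 0.00614) and 2.32 for Mup2 (adjusted p = 0.0147), and the ratios of the sum of the 4 were 1.74 and 1.78. Among all genes tested, 23.7% were higher and 21% lower on heavy polysomes than on monosomes.

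For Mup17 and Mup3 the same comparison missed the threshold. Mup17 had ratios of 8.16 and 3.52 and a difference of 2.42 (interval 0.05 to 4.79, limma adjusted p = 0.0923). Mup3 had ratios of 2.49 and 2.58, which agree closely, and a difference of 1.34 (interval -2.16 to 4.85, adjusted p = 0.541). The fractions of 1 chow preparation share their source. With the preparation as a replicate block, adjusted p fell to 0.000423 for Mup3 and 0.000786 for Mup17, and to 1.79e-05 and 3.53e-05 for Mup2 and Mup10. Without the first preparation Mup17 was also called, at 1.81 (limma adjusted p = 0.0211). In DDC, where Mup3 alone of the 4 was above 0 in every library, its ratio of heavy polysomes to monosomes was 2.05 in preparation B and 2.06 in preparation C. With equal totals these became 1.15 and 1.60, and those of Mup3 in chow 1.38 and 1.54.

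Heavy and light polysomes differed less. Mup2 was at 239 and 979.6 FPKM on heavy and 80.3 and 148 FPKM on light polysomes, a difference of 2.14 (interval 0.64 to 3.64, limma adjusted p = 0.0354). That call was lost with libraries scaled to equal totals (1.47, adjusted p = 0.121) and with quantile normalization (1.504, adjusted p = 0.125). It was also lost without either light polysome library (adjusted p = 0.184 without replicate 1 and 0.0657 without replicate 2) and without heavy polysome replicate 2 (1.13, adjusted p = 0.225). Mup17 differed by 1.23 (interval -1.14 to 3.60, adjusted p = 0.426, and 0.0356 with the replicate block), Mup3 by 0.35 (interval -3.16 to 3.85, adjusted p = 0.911) and Mup10 by -0.11 (interval -1.26 to 1.05, adjusted p = 0.917). Of all genes, 16% were higher and 15.3% lower on heavy than on light polysomes. These intervals are wide enough to hold several-fold differences in either direction for Mup3, and they include the spread between the 2 chow preparations. Within the preparations Mup3 had ratios of heavy to light polysomes of 1.04 and 1.56.

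Between heavy polysomes and cytoplasm none of the 4 was called by limma, with 0 at an unadjusted p under 0.05 as well. The differences were 0.99 for Mup2 (adjusted p = 0.251), 0.98 for Mup3 (0.656), 0.56 for Mup17 (0.706) and -0.09 for Mup10 (0.915), and among all genes 27.6% were higher and 23.9% lower. With the replicate block Mup2 (adjusted p = 0.00981) and Mup3 (0.00273) were called. Summed FPKM was higher in heavy polysome libraries than in cytoplasmic ones, and with libraries scaled to equal totals the sign turned to -0.54 for Mup2, -0.56 for Mup3 and -0.98 for Mup17, while Mup10 was lower at -1.63 (adjusted p = 0.0167).

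**Figure D3:**
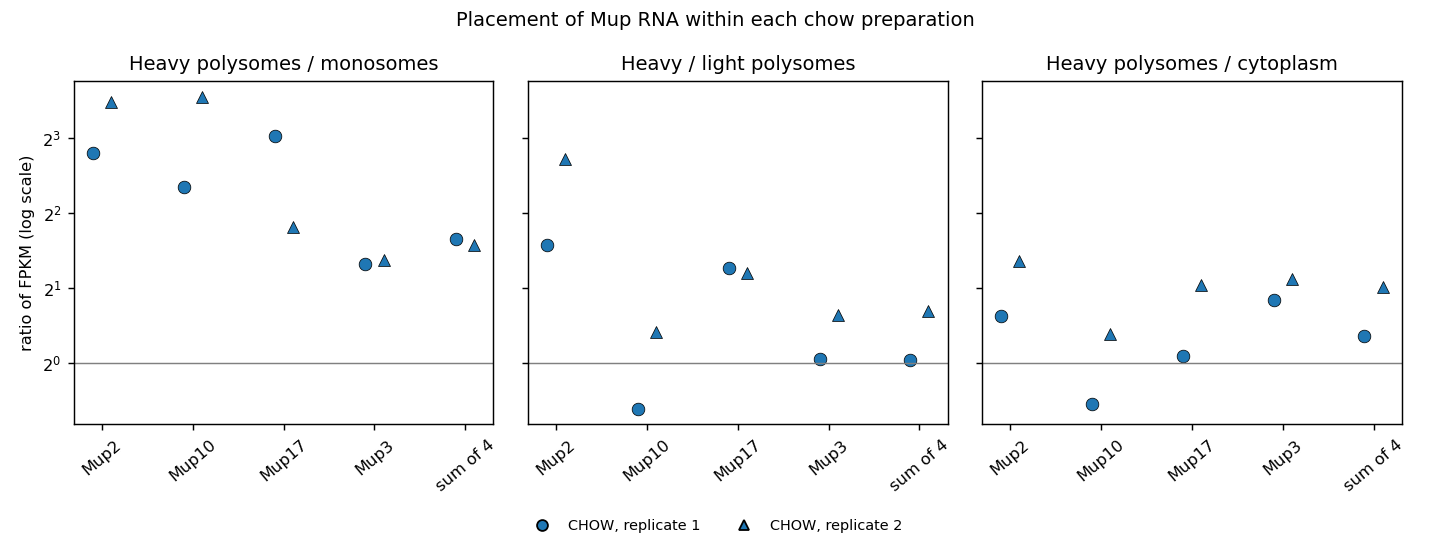
Ratio of FPKM between RNA pools on a log axis, for each of the 4 genes and their sum, within each of the 2 chow preparations (circles replicate 1, triangles replicate 2); the grey line marks equal levels. Ratios of heavy polysomes to monosomes all lie above 1, from 2.49 for Mup3 to 11.8 for Mup10.

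The Mup2 signal came from different transcripts in different fractions. The table lists 3 Mup2 transcripts: protein-coding ones of 761 and 927 bases and a processed transcript of 817 bases without a coding sequence. The processed transcript held 81.9 and 62.7% of Mup2 FPKM on chow monosomes, 45.7 and 34.6% on light polysomes, and 1.67 and 0.32% on heavy polysomes. In cytoplasm it held 13.7 and 6.93%. The 761-base coding transcript rose the other way, from 0.0004 and 26.1 FPKM on monosomes to 224 and 945 FPKM on heavy polysomes. The 2 preparations ordered the gradient fractions alike. The 2 main Mup3 transcripts, of 938 and 916 bases, kept shares of 39.5 to 49.2% and 50.2 to 59.7% in all 8 chow libraries. Since nearly all Mup2 sequence is shared with other copies, the division among its transcripts rests on the authors' software.

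**Figure D4:**
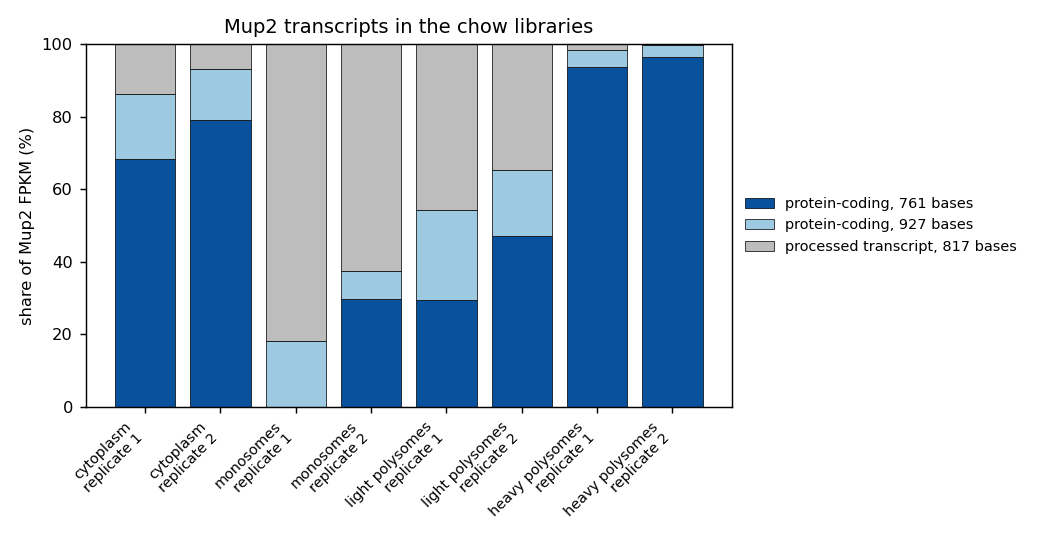
Share of Mup2 FPKM (%) held by each of its 3 transcripts in the 8 chow libraries, as stacked bars. The grey processed transcript takes the largest share on monosomes (81.9 and 62.7%) and almost none on heavy polysomes (1.67 and 0.32%).

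Genes of the growth hormone pathway and known regulators of Mup genes were mostly lower with DDC where they changed. Of 25 listed and tested, 8 fell and 0 rose in cytoplasm by limma, with a median difference of -0.65 (log2) against 0.01 for all genes. Among all genes tested there, 9.68% were lower and 12.7% higher. On heavy polysomes 8 fell and 0 rose, with a median of -0.50 against 0.02, where 10.9% of all genes were lower and 13.9% higher. On monosomes 12 fell and 1 rose, with 16% of all genes lower and 21.1% higher, and on light polysomes 9 fell and 1 rose, with 13.5% lower and 16.6% higher. Without chow replicate 1, 3 fell in cytoplasm and 7 on heavy polysomes. The all-gene shares were then 3.7% lower and 5.26% higher in cytoplasm, and 6.72% lower and 9.91% higher on heavy polysomes. These lists were drawn up with earlier results of the data known.

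Ghr, the growth hormone receptor, was at 162 and 244 FPKM in chow cytoplasm and at 24.4 and 17.5 FPKM with DDC. It fell by 3.20 ± 0.386 (log2, SE, limma adjusted p = 0.000176), and on heavy polysomes it fell by 4.38 ± 0.385 (adjusted p = 1.45e-05), where it was at 99.9 and 154 FPKM against 6.12 and 4.04. Without chow replicate 1 it fell by 3.5 and fell by 4.69 in these pools (adjusted p = 0.00459 and 0.000803). Stat5b, which carries the signal to the nucleus, was at 7.30 and 6.63 FPKM against 3.08 and 3.01 in cytoplasm and fell by 0.98 ± 0.215 (adjusted p = 0.00734, 0.0783 without the chow libraries of replicate 1, and 0.0525 without DDC cytoplasm replicate 2). On heavy polysomes its difference was -0.06 (adjusted p = 0.878).

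Targets of the pathway were lower on heavy polysomes in the case of Igf1, Igfals and Socs2. Igf1, the hormone that growth hormone induces in liver, was at 1974 and 1929 FPKM on chow heavy polysomes and at 506 and 681 FPKM with DDC, a fall of 1.73 ± 0.406 (limma adjusted p = 0.00833, 0.0904 without chow replicate 1, and 0.0531 without DDC heavy polysome replicate 1). In cytoplasm its libraries overlapped, at 753 and 579.8 FPKM against 605 and 493 (-0.27, adjusted p = 0.684). Igfals, which carries IGF1 in blood, fell by 3.06 ± 0.447 on heavy polysomes (adjusted p = 0.000483). Socs2, a feedback inhibitor, fell there by 1.93 ± 0.549 (adjusted p = 0.0224). That call was lost when any 1 of the 4 heavy polysome libraries was left out (limma adjusted p = 0.0522 to 0.12), and in cytoplasm its difference was -1.54 (adjusted p = 0.064). Cish, another feedback inhibitor, was at -0.23 in cytoplasm and -0.76 on heavy polysomes (adjusted p = 0.765 and 0.246).

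Among liver transcription factors, Cebpa was at 177 and 172 FPKM in chow cytoplasm and at 66.5 and 43.8 FPKM with DDC. It fell by 1.67 ± 0.306 in cytoplasm (limma adjusted p = 0.00264, and 0.0678 without chow replicate 1) and by 1.96 ± 0.306 on heavy polysomes (adjusted p = 0.000755). Ppara, a fatty acid sensor, fell in cytoplasm by 1.67 ± 0.287 (adjusted p = 0.00178). Onecut1 fell by 1.71 ± 0.543 on heavy polysomes (adjusted p = 0.0367) and was at -1.21 in cytoplasm (adjusted p = 0.134). The heavy polysome call for Onecut1 was lost without chow replicate 2 (-0.86, limma adjusted p = 0.298) or without either DDC library (0.0987 and 0.135). Hnf4a (-0.65, adjusted p = 0.124) and Zhx2, a known regulator of Mup genes (-0.09, adjusted p = 0.841), were not called in cytoplasm, nor on heavy polysomes (adjusted p = 0.752 and 0.989).

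**Figure D5:**
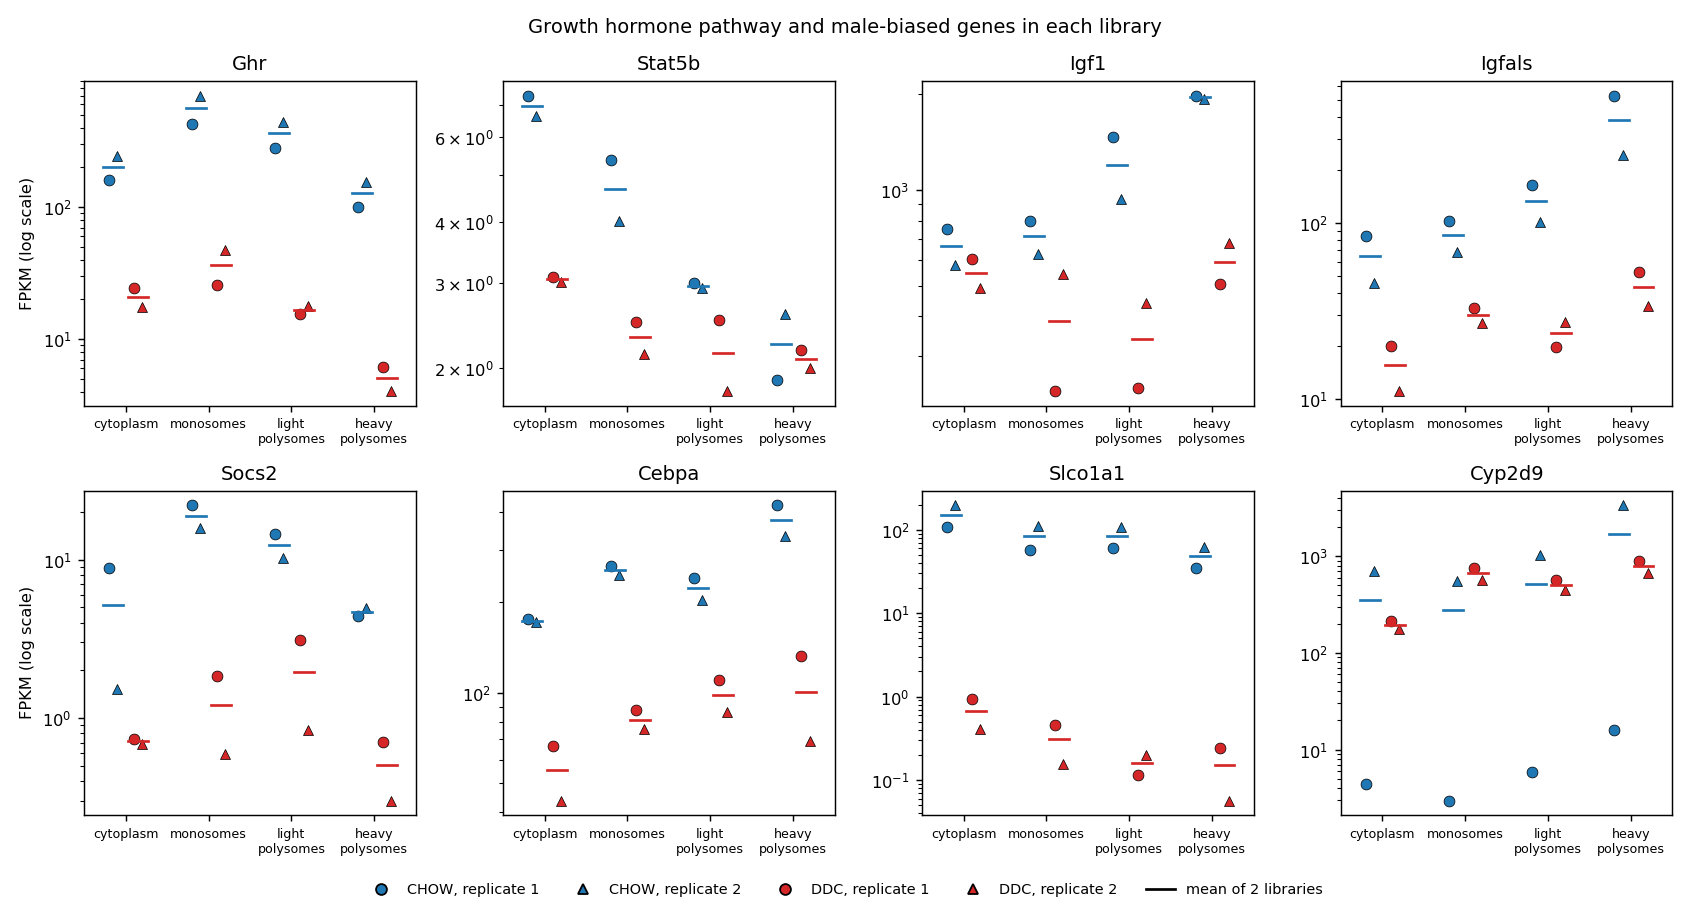
FPKM on a log axis for growth hormone pathway genes (Ghr, Stat5b, Igf1, Igfals, Socs2), the transcription factor gene Cebpa and the male-biased genes Slco1a1 and Cyp2d9, by RNA pool; circles are replicate 1 and triangles replicate 2, blue CHOW and red DDC, lines are means of 2 libraries, and each panel has its own axis. The DDC points of Ghr, at most 47.2 FPKM, lie below all its chow points, whereas those of Cyp2d9 lie above chow replicate 1.

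Other male-biased liver genes were followed as a comparison for the Mup genes. In cytoplasm 4 of 21 fell and 0 rose by limma, and on heavy polysomes 7 of 20 fell and 0 rose, where 9.68% and 10.9% of all genes were lower. The median difference was -1.47 in cytoplasm and -1.97 on heavy polysomes (log2), against 0.01 and 0.02 for all genes. Without chow replicate 1, 14 of 21 and 15 of 20 fell, against 3.7% and 6.72% of all genes. Slco1a1, a transporter of organic anions, was at 107 and 196 FPKM in chow cytoplasm and at 0.932 and 0.405 with DDC (-6.47 ± 0.414, adjusted p = 2.95e-06). Cyp7b1, a steroid hydroxylase, fell by 4.79 ± 1.20 (adjusted p = 0.0139), and Keg1 fell by 3.15 ± 0.733 (adjusted p = 0.00972). Cyp2d9, a male-biased cytochrome P450, was at 4.41 and 706 FPKM in chow cytoplasm and at 215 and 177 FPKM with DDC, so that its DDC libraries lay between the chow ones, as those of Mup20 did. Cyp2d9 was chosen after its values were seen, as were Hsd3b5 and Cyp2b9. Hsd3b5, a steroid dehydrogenase, was at 0.704 and 67.3 FPKM in chow cytoplasm and at 0.0277 and 0.0413 with DDC.

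Of 22 female-biased liver genes, 2 rose and 0 fell in cytoplasm by limma, and 3 rose and 0 fell on heavy polysomes, shares near those of all genes (12.7% and 13.9% higher). The median over the list had the other sign, at -1.57 in cytoplasm and -0.70 on heavy polysomes (log2). Without chow replicate 1, 4 of 16 and 5 of 16 rose, against 5.26% and 9.91% of all genes, and the medians were 1.12 and 2.45. Sult1e1, an estrogen sulfotransferase, was at 0.222 and 0.024 FPKM in chow cytoplasm and at 16.04 and 51.6 with DDC (4.74 ± 0.521, adjusted p = 0.000102). Prom1, which is also a cholangiocyte marker, rose by 4.84 ± 0.570 (adjusted p = 0.000158). Cyp2b10, a drug-metabolising enzyme, rose by 2.52 ± 0.619 on heavy polysomes (adjusted p = 0.0107). Cyp2b9 was at 184 and 5.02 FPKM in chow cytoplasm and at 16.6 and 13.8 with DDC.

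Among other lipocalin genes Lcn2 and Orm2 rose in cytoplasm and C8g fell. Of 13 listed, 10 were tested, and in cytoplasm 2 rose and 1 fell by limma, while on heavy polysomes 1 rose and 1 fell, counts near the shares of all genes (12.7% higher and 9.68% lower in cytoplasm, 13.9% and 10.9% on heavy polysomes). The median difference was 0.53 in cytoplasm and 0.21 on heavy polysomes (log2). Without chow replicate 1, 1 rose and 0 fell in cytoplasm, and 1 rose and 1 fell on heavy polysomes. Lcn2, an iron-withholding lipocalin of the acute phase, was at 5.00 and 0.787 FPKM in chow cytoplasm and at 3567 and 4937 with DDC (10.32 ± 1.16, adjusted p = 0.000117). On heavy polysomes it was at 89.5 and 13.5 FPKM against 9698 and 21924. Orm2, an acute phase glycoprotein, rose by 4.43 ± 1.12 in cytoplasm (adjusted p = 0.015), where Orm1 was at 1.92 ± 0.674 (adjusted p = 0.0602). Rbp4, the carrier of retinol, was at 3394 and 4341 FPKM in chow cytoplasm and at 3398 and 2502 with DDC (-0.40, adjusted p = 0.452). C8g, a complement subunit, fell by 1.139 ± 0.265 in cytoplasm and 1.96 ± 0.266 on heavy polysomes (adjusted p = 0.00982 and 0.00029).

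The genes outside the family whose pattern was most like the sum of the 4, by Pearson's r of log2(FPKM + 1) over 16 libraries, were Ces3a (0.98), Ces1f (0.98), Slc22a30 (0.97), Mfsd4b1 (0.96) and Car3 (0.96). These libraries share diet, pool and preparation, and no test was made. Ces3a, a carboxylesterase, was at 458 and 989.9 FPKM in chow cytoplasm and at 26.3 and 5.94 with DDC. Car3, a carbonic anhydrase, was at 1119 and 3781 FPKM against 175 and 40.04. The 4 genes themselves had r of 0.94 to 0.99 with each other over the 16 libraries. They were selected for their fall with DDC, which raises these values. Over the 8 chow libraries alone r was 0.57 to 0.88, with the lowest value between Mup3 and Mup10.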

How the data were processed

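PolyA-selected RNA of 16 libraries was analysed. The deposited values are FPKM per transcript, although the file is named for counts; the submitters' processing notes list Cuffnorm, STAR 2.4.2a, bcl2fastq 2.17.1.14, Picard 1.119 and Trimmomatic, with builds GRCm38 and mm10. Of 117592 rows, 116728 (99.286%) matched GENCODE M21 by transcript ID, and FPKM were summed over the transcripts of 48158 genes. Genes with 1 FPKM in 2 libraries were fitted as log2(FPKM + 1) with limma 3.58.1 (R 4.3.3): 8 group means, a variance trend and Benjamini-Hochberg adjustment over all genes tested, called under 0.05. A gene at 0 in both libraries of a group that reached 100 FPKM in any other library counted as missing there (61 genes). P-values measure the spread between these libraries. Sequenced depth is unknown. The fit was tested on simulated data. In the replicate block, preparations paired fractions within a diet: differences between replicates correlated at 0.357 to 0.749 within chow and -0.094 to 0.07 between diets. Named genes were the 4 members, other Mup genes at 100 FPKM in a group mean, 12 fixed genes, the 3 called genes of lowest p in each list, and the 5 genes of most like pattern. Members and lists were chosen with earlier results of these data known. Lcn13 was not matched. Sequences came from GENCODE M21 and RefSeq (GRCm38.p6, 14 of 21 Mup promoters matched) and were aligned with Biopython 1.88. Alternatives were another pseudocount, filter, scaling, transcript choice or set of libraries, no trend, and the block.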

Additional observations from a re-analysis of the deposited data

Results flagged for a closer look

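For 3 genes both DDC libraries lay above both chow libraries in 1 RNA pool and below them in another, a difference between pools that was not tested. For Hnf4a the diet difference was 0.61 (log2) on light polysomes and -0.65 in cytoplasm, 1.26 apart. For Rbp4 it was 0.73 on monosomes and -0.75 on heavy polysomes, 1.48 apart, but the heavy polysome sign turned with quantile normalization. For Apom, a lipocalin carried on lipoprotein particles, it was 1.46 on monosomes and -0.75 on heavy polysomes, 2.21 apart.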

How the results depend on the processing

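Values are log2 differences or counts of genes called by limma. Without the 4 chow libraries of replicate 1, genes called between the diets fell from 2634 to 1025 in cytoplasm, from 3544 to 1850 on light polysomes and from 2915 to 1901 on heavy polysomes, and within chow from 5263 to 3046 (heavy polysomes against monosomes), from 3676 to 817 (against light polysomes) and from 6053 to 3519 (against cytoplasm), with fewer libraries in the fit. With only the groups compared, the counts were 4336 in cytoplasm, 2526 on monosomes (4357 with all groups) and 1375 on heavy polysomes. Leaving out 1 library at a time gave 1173 to 1285 in cytoplasm, 2026 to 2625 on light polysomes and 1840 to 3333 for heavy against light polysomes. Summing all Mup genes moved the cytoplasmic diet difference of the sum from -7.25 to -6.21.

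Signs turned only for differences that were not called. With equal totals these were Mup3 (-0.33) against light polysomes, Mup2 (-0.54), Mup3 (-0.56) and Mup17 (-0.98) against cytoplasm, and between the diets Zhx2 in cytoplasm (0.068) and Stat5b (0.25) and Hnf4a (0.34) on heavy polysomes. With quantile normalization they were Mup3 (-0.48) against light polysomes, Mup2 (-0.61), Mup3 (-0.72) and Mup17 (-1.12) against cytoplasm, and Zhx2 (-0.20) and Rbp4 (0.13) between the diets on heavy polysomes. Without the first chow preparation Mup10 turned to 0.41 against light polysomes and 0.38 against cytoplasm. Leaving out 1 library gave, against light polysomes, -0.95 to 1.64 for Mup3 and -0.95 to 0.73 for Mup10, and against cytoplasm -0.023 to 2.01 for Mup2, -0.32 to 2.27 for Mup3, -0.93 to 0.75 for Mup10 and -0.51 to 1.63 for Mup17. Between the diets it gave -0.68 to 0.22 for Cish and -0.19 to 0.001 for Zhx2 in cytoplasm, and -0.22 to 0.10 for Stat5b and -0.22 to 0.25 for Zhx2 on heavy polysomes. Apart from equal totals and left-out libraries, the cause of these changes was not tested.

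The replicate block, which pairs fractions by preparation within a diet, raised the counts to 3650, 5328, 4658 and 3849 between the diets in cytoplasm, monosomes, light and heavy polysomes, and to 6013, 4585 and 6756 for heavy polysomes against monosomes, light polysomes and cytoplasm in chow. The fragments behind a value of 0 are unknown, so differences among copies listed at 0 in DDC cannot be seen.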
